A study of Homo sapiens with 4 samples.

Results

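The level and the poly(A) site choice of 8 genes of actin filament elongation were examined in esophageal squamous cell carcinoma (ESCC) cells given l-lactate: ENAH, VASP, EVL, DIAPH1, DIAPH3, PFN1, PFN2 and ZYX. ENAH was selected on these same libraries because the share of its transcripts ending at the most distal poly(A) site (PAS) fell with l-lactate in both lines, so its l-lactate values are given as a description and without a test. The other 7 genes were taken for their function beside ENAH. A PAS cluster (PAC, neighbouring sites joined into 1 region) was counted to a gene when its dominant site (where most of its tags ended) lay in the gene's same-strand GENCODE span. This gave 11 of the 17627 PACs in the series and 8 of the 11249 genes with a PAC. ENAH held 4 of these PACs and each other gene held 1. All 11 were in a 3′ UTR and all were listed in all 4 libraries.

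Both lines, KYSE30 and TE-1, are long-established cultures of human ESCC. Each was represented by a PAS-seq library made after 24 h in 20 mM l-lactate and by a control library from cells given PBS, and the labels name no further allele or agent. PAS-seq sequences the 3′ ends of polyadenylated RNA, so each tag is taken here as the cleaved end of 1 transcript. The libraries were amplified, and the paper describes no removal of duplicate reads. How far tags repeat the same molecule was not tested, and the counting intervals take them as separate. Levels in TPM (tags scaled to the depth of a library) need no correction for transcript length. The cell line field of both control samples names a different line of the same series (KYSE32 and TE-3), whereas their titles give KYSE30 and TE-1, which were followed here. Since no condition was repeated within a line, there was no spread between cultures, and every interval below covers counting error only.

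The libraries held between 7174991 and 10393799 tags and listed between 14810 and 15048 PACs, and the lowest listed TPM stood for 8 to 11 tags. Of 7 squamous markers, KRT5, KRT14 and DSG3 had no listed PAC in any of the 4 libraries. SFN was at 206 to 313 TPM in all 4, TP63 and KRT6A were listed in KYSE30 only and KRT17 in TE-1 only. The keratins have close relatives between which reads could be split, which was not tested. Among markers of other cells, 3 of 4 fibroblast genes summed to 15.4 and 16.6 TPM in TE-1 and were not listed in KYSE30. CD68 was the only 1 of 3 immune genes listed (3.48 to 15.2 TPM). CDH5 was the only 1 of 3 endothelial genes listed (11.2 and 16.2 TPM in KYSE30, not listed in TE-1). COL1A2, PTPRC, CD3E, PECAM1 and VWF were not listed in any library. The part of these markers in the differences between the lines was not tested.

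Actin filaments grow at their barbed ends, where proteins of the ENA/VASP family and the formins add monomers and hold off capping proteins. Both draw on actin bound to profilin, which the cell keeps as a ready pool. Zyxin, a LIM protein of focal adhesions, binds the ENA/VASP proteins and brings them to adhesions and stress fibres. The pathway is best known for driving lamellipodia, filopodia and the motility of carcinoma cells.

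ENAH, also called Mena, encodes an ENA/VASP protein known for its link to carcinoma invasion. The gene lies on the minus strand at chr1:225486765-225653142 (GRCh38). Of its 4 PACs, 3 were in the 3′ UTR of exon 14, the last exon of the long transcripts ENAH-203, ENAH-204 and ENAH-210. The proximal PAC (chr1:225496726-225497094) had its dominant site 1052 nt past the coding sequence. The middle PAC (chr1:225494263-225495858) was 1596 nt wide and had its dominant site 3136 nt past the coding sequence in 3 libraries. The distal PAC (chr1:225486831-225486836) lay 10942 nt past it, 7806 nt beyond the middle site. The remaining PAC (chr1:225519045-225519053) was in exon 4 of ENAH-207, a short transcript with a last exon of its own, 82 nt past its coding sequence.

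The 30 nt that end at each dominant site of ENAH are given here, since they are the places among which its transcripts were divided. They are read 5′ to 3′ on the transcribed minus strand of GRCh38, and capitals mark the poly(A) signal nearest the site (AAUAAA in the RNA).
ENAH proximal, chr1:225496726-225496755: ttctcagttacctgcatgAATAAAtaatga
ENAH middle in the KYSE30 control, chr1:225494820-225494849: cgtttgtgcgattgaAATAAAattgcagta
ENAH middle in the other 3 libraries, chr1:225494642-225494671: tcatagaagtcgtgaatactaagtaatgta
ENAH distal, chr1:225486836-225486865: ttcttttgaAATAAAaacatgaaatactta
ENAH alternative last exon, chr1:225519045-225519074: atgAATAAAtatgcagcaattactacttta
The proximal, distal and alternative last exon sites each had AAUAAA in the 50 nt upstream, ending 6, 15 and 21 nt before the site. Like 3.49% of 17621 PACs, the middle site dominant in 3 libraries had neither this hexamer nor any of its 18 single-base variants there. The site 178 nt upstream of it, dominant in the KYSE30 control, had AAUAAA ending 9 nt before it. Over all PACs, 66.4% held AAUAAA in this window. The dominant sites of VASP, EVL, DIAPH1, DIAPH3, PFN1, PFN2 and ZYX all held it, ending 13 to 23 nt upstream.

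UGUA, the motif bound by NUDT21, was sought in the 100 nt upstream on the transcribed strand, and 57% of all PACs held it. The proximal, distal and alternative last exon sites of ENAH held none. The middle site dominant in 3 libraries held 1, which ended on that site itself, and the site dominant in the KYSE30 control held none. Of the other genes, DIAPH3 and ZYX held 1 each and VASP, EVL, DIAPH1, PFN1 and PFN2 none. Of the 20 genomic bases after the ENAH middle site of 3 libraries, 10 were A, below the 12 (or a run of 6) counted as A-rich here, which 1.33% of PACs reached. Between the middle and the distal site the transcribed strand held AAUAAA 16 times in 7806 nt at 39.3% GC, with no further PAC listed there. Between the coding sequence and the middle site it was held 4 times in 3136 nt at 33.6% GC. UGUA was held 42 times between the middle and the distal site (5.38 per kb). Between the coding sequence and the middle site it was held 27 times (8.61 per kb).

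The distal PAC of ENAH was at 27.9 TPM in KYSE30 with l-lactate and 34.1 TPM in its control, and at 14.5 and 21.1 TPM in TE-1. It was lower with l-lactate in both lines, with a TPM ratio of 0.818 in KYSE30 and 0.689 in TE-1. The middle PAC moved the other way, from 42.2 to 52.5 TPM in KYSE30 and from 34.4 to 45.3 TPM in TE-1. The l-lactate library was thus 1.25-fold higher at the middle PAC in KYSE30 and 1.32-fold higher in TE-1. In TPM the distal PAC lost 6.2 in KYSE30 and 6.55 in TE-1 while the middle PAC gained 10.4 and 10.9.

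**Figure D1:**
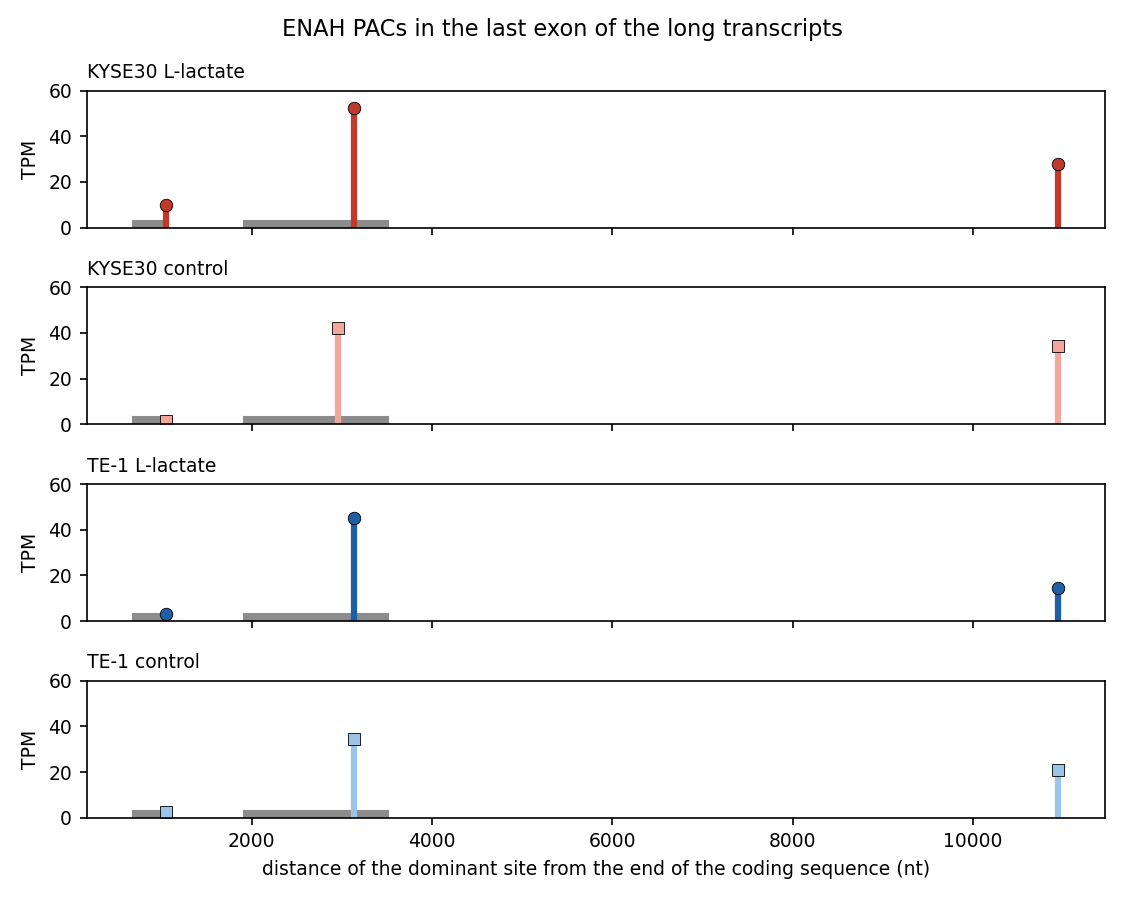
TPM of the 3 ENAH PACs in the last exon of the long transcripts (y axis) at the distance of the dominant site from the end of the coding sequence in nt (x axis), with 1 panel per library and grey bars for the extent of each PAC. With l-lactate the distal marker is lower and the middle marker higher in both lines, and the middle marker of the KYSE30 control sits 178 nt nearer the coding sequence than in the other 3 libraries.

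The proximal PAC was at 9.9 TPM in KYSE30 with l-lactate and 1.62 TPM in its control, but at 2.95 and 2.5 TPM in TE-1. It was high in the KYSE30 l-lactate library only, with 71 tags against 12 in the control. In that control, however, the TPM listed for the dominant site (2.29) was above that of its PAC, which occurred in 19 PACs of that library and makes the PAC value uncertain. At the dominant site alone the ratio was 2.68 in KYSE30 (44 against 17 tags, 95% interval 1.5 to 5) and 1.13 in TE-1 (0.612 to 2.07). The alternative last exon was at 3.62 and 2.96 TPM in KYSE30 and 7.56 and 6.45 TPM in TE-1, higher in both TE-1 libraries than in both of KYSE30.

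As a share of all 4 ENAH PACs, the distal PAC held 29.7% in KYSE30 given l-lactate (95% Wilson interval 26.3% to 33.2%, 674 tags) and 42.2% in its control (38.3% to 46.2%, 600 tags). In TE-1 it held 20.6% (17.6% to 24.1%, 596 tags) and 32.7% (29.2% to 36.3%, 670 tags). The middle PAC was higher in both lines in TPM, and the shares of the other PACs were as follows, with no test between the lines. In KYSE30 the proximal share was higher by 8.53 points (Newcombe interval 5.98 to 11.2) and the middle share by 3.77 (-1.71 to 9.22). The proximal difference and its interval rest on the uncertain PAC value of the KYSE30 control, 12 tags where the dominant site alone had 17. In TE-1 the middle share was higher by 11 points (5.57 to 16.3) and the proximal share by 0.314 (-1.88 to 2.59). The alternative last exon differed by 0.191 and 0.738 points, inside counting error in both lines.

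**Figure D2:**
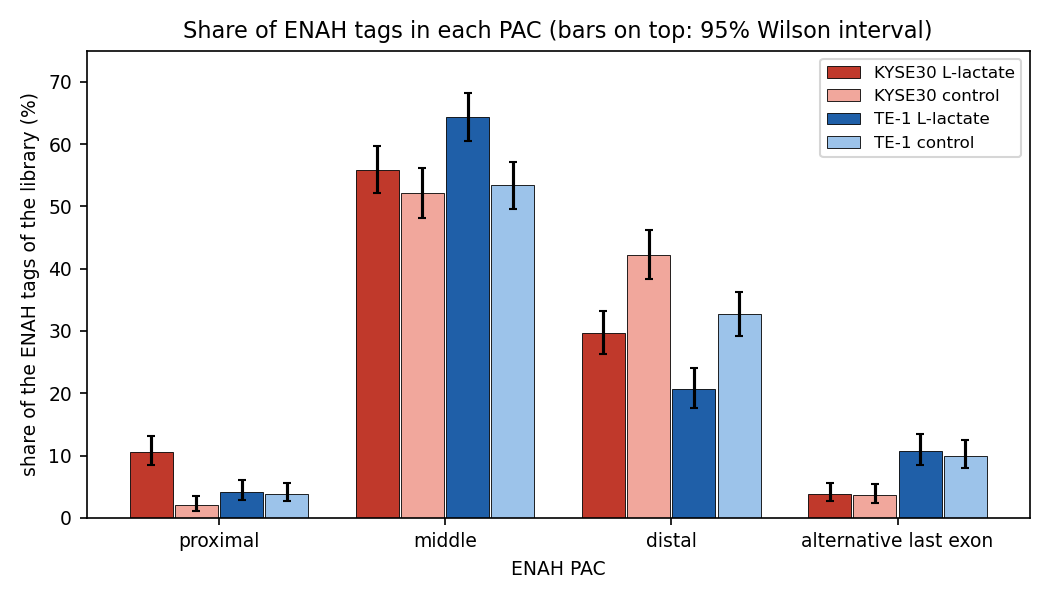
Share of the ENAH tags of each library in each of its 4 PACs in percent (y axis), with 1 bar per library and error bars for the 95% Wilson interval. The distal bars are lower with l-lactate in both lines, the proximal bar stands out in KYSE30 with l-lactate at 10.5%, and the middle bar is highest in TE-1 with l-lactate at 64.4%. The proximal bar of the KYSE30 control rests on an uncertain PAC value.

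The selection used distal usage among 3′ UTR PACs that passed 5 TPM in at least 1 library of the line. Measured in that way, ENAH had 30.9% in KYSE30 given l-lactate against 43.8%, a change of -12.9 percentage points (interval -18.2 to -7.49). In TE-1 it had 21.5% against 34%, a change of -12.5 points (-17.4 to -7.44). The third PAC counted was the proximal 1 in KYSE30 and the alternative last exon in TE-1. Against the middle PAC alone, which both lines share, distal usage went from 44.7% to 34.7% in KYSE30 and from 38% to 24.3% in TE-1. A fall of 10 points or more was seen in 5.86% of 1656 genes measured in KYSE30, in 5.17% of 1662 in TE-1, and in both lines in 17 of 1271 genes, or 1.34%. Ranked by the smaller of its 2 falls, ENAH was number 8 of these 17. The last gene inside, CSNK1E, fell by 10.2 points and the first outside, SNTB2, by 9.9, so the limit did not fall in a gap. Weighted by TPM, the mean 3′ UTR length over the 3 PACs of the long transcripts was 5317 nt in KYSE30 given l-lactate and 6510 nt in its control, and 4843 and 5881 nt in TE-1.

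Distal usage of ENAH was also lower in TE-1 than in KYSE30 under the same condition. The mean share over all 4 PACs was 26.7% in TE-1 and 35.9% in KYSE30, a difference of -9.26 points. No test of this difference is given, because its error would rest on how closely the falls of the lines agreed, and ENAH was selected on those falls.

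The 5 genes nearest to ENAH by their 4 distal usage values (Euclidean distance in percentage points over 1953 other genes) were DENND1A, AKAP12, PPHLN1, CGGBP1 and HSPA4L. DENND1A, at a distance of 5.64 points, had 25.8% and 38.9% in KYSE30 and 23.1% and 32.5% in TE-1, with l-lactate first. AKAP12 had 32.4% and 40.7% in KYSE30 and 16.9% and 28.3% in TE-1. All 5 were lower with l-lactate in both lines, with changes from -6.48 points (PPHLN1) to -13.2 points (DENND1A) in KYSE30 and from -4.9 points (PPHLN1) to -11.4 points (AKAP12) in TE-1. They were picked for this likeness from the 4 libraries of the selection, so their falls carry no evidence of their own.

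Within the middle PAC of ENAH the dominant site lay 178 nt further downstream with l-lactate than without it in KYSE30, and at the same base in both TE-1 libraries. The dominant site held 42.4% of the tags of the PAC in KYSE30 given l-lactate and 46% in its control, at 22.3 and 19.4 TPM, and the tags at the other site of each library are not listed. Neither quantile position listed for the PAC moved by more than 24 nt. Among the 8 PACs of the 8 genes above 5 TPM in both KYSE30 libraries this was the 1 with a move of more than 24 nt, against 1.43% of all PACs compared, and among 10 in TE-1 there was none, against 1.24%.

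ENAH as a whole was at 93.9 TPM in KYSE30 given l-lactate and 80.8 TPM in its control, and at 70.4 and 64.5 TPM in TE-1. It was higher with l-lactate by 0.21 on the log2 scale in KYSE30 (interval of the tag ratio 0.06 to 0.38) and by 0.12 in TE-1 (-0.04 to 0.29). The log2 values here and below are of TPM + 1, which understates the change of low genes. In bulk libraries such as these, fewer cells of a type and less RNA per cell cannot be told apart.

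VASP, the family member of focal adhesions and filopodium tips and a substrate of cyclic nucleotide dependent kinases, was at 100 and 111 TPM in KYSE30 and 298 and 202 TPM in TE-1, with l-lactate first. Both TE-1 libraries were above both of KYSE30, and the TE-1 library with l-lactate was the highest. With l-lactate VASP was higher by 0.56 in TE-1 (interval 0.47 to 0.64, a 1.47-fold level) and lower in KYSE30, at -0.15 (-0.29 to -0.0027). Opposite directions outside both counting intervals were found for 2.33% of 9124 genes, and for 1 of the 7 genes beside ENAH. Whether the effect differed between the lines was not tested across replicates.

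VASP had 1 PAC on the plus strand at the end of its 3′ UTR (chr19:45526979-45526999, transcript VASP-213), and its dominant site lay 9 nt further downstream in both TE-1 libraries than in both KYSE30 libraries. Both windows show the same signal in capitals, 14 and 23 nt upstream of the site.
VASP in KYSE30, chr19:45526950-45526979: gcccctgcagAATAAAtctgccagttttta
VASP in TE-1, chr19:45526959-45526988: gAATAAAtctgccagtttttataaatgcta
The dominant site held 45.3% of the VASP tags in KYSE30 given l-lactate and 51.3% in its control, a difference of -6.05 points (-11 to -1.06). In TE-1 it held 58.8% and 71.8%, a difference of -13 points (-15.7 to -10.2). It was lower with l-lactate in both lines, although the 2 sites compared across the lines are different. In TE-1 the rise was 2.15-fold (1.94 to 2.38) at the other positions of the PAC, from 57 to 122 TPM, against 1.21-fold (1.12 to 1.3) at the dominant site. In KYSE30 the other positions were at 54.9 and 54.1 TPM, a ratio of 1.01 (0.88 to 1.17).

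EVL, the third ENA/VASP gene, was at 6.41 and 6.33 TPM in KYSE30 and 21.8 and 24.2 TPM in TE-1. Both TE-1 libraries were above both of KYSE30, and within a line the l-lactate difference was inside counting error. Of the summed TPM of the 3 family genes, ENAH made up 46.8% in KYSE30 given l-lactate and 40.7% in its control, and 18.1% and 22.2% in TE-1. VASP made up 50% and 56.1% in KYSE30 and 76.3% and 69.5% in TE-1. VASP was thus the larger part in the KYSE30 control and in both TE-1 libraries, while in KYSE30 with l-lactate the counting intervals of VASP and ENAH overlapped. The sum was 201 and 198 TPM in KYSE30 and 390 and 291 TPM in TE-1.

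Of the formins, DIAPH1, an effector of RhoA that nucleates and elongates unbranched filaments, was at 171 and 192 TPM in KYSE30 and 158 and 148 TPM in TE-1. Its log2 difference with l-lactate was -0.17 in KYSE30 (-0.28 to -0.06) and 0.09 in TE-1 (-0.01 to 0.2). DIAPH3, a formin of filopodia and of dividing cells, was at 4.18 and 4.31 TPM in KYSE30 and 8.38 and 9.72 TPM in TE-1, on 30 to 101 tags. It was among the scarcest transcripts of the 8 in all 4 libraries. DIAPH1 exceeded DIAPH3 by 41 and 44.6 times in KYSE30 and by 18.8 and 15.2 times in TE-1. The single DIAPH3 site is the 1 of the 8 genes' dominant sites followed by A-rich genome, with 10 A in 20 bases including a run of 6. It also had AAUAAA ending 16 nt upstream, in capitals.
DIAPH3, chr13:59665595-59665624, minus strand: tcaaaggaAATAAActtgctacttgcacta

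Of the profilins, PFN1, which supplies polymerizable actin in nearly all cells, was at 1010 and 1016 TPM in KYSE30 and 1219 and 1213 TPM in TE-1. It was the most abundant of the 8 by far, and with 7247 or more tags per library its l-lactate differences of -0.0082 and 0.007 had the narrowest intervals (-0.05 to 0.04 in KYSE30 and -0.03 to 0.04 in TE-1). PFN1 has processed pseudogenes, and how reads that fit several places were treated is not given in the sources used here. PFN2, the profilin best known from neurons, was at 256 and 218 TPM in KYSE30 and 199 and 190 TPM in TE-1. It was higher with l-lactate in KYSE30 by 0.23 (0.14 to 0.33), and by 0.06 in TE-1 (-0.03 to 0.16). PFN1 exceeded PFN2 by 3.95 and 4.67 times in KYSE30 and by 6.13 and 6.37 times in TE-1. The PFN2 PAC also lies in the span of ANKUB1 on the same strand.

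ZYX, the zyxin gene, was at 5.85 and 5.39 TPM in KYSE30 and 25.6 and 26.9 TPM in TE-1. It showed the widest gap between the lines, with both TE-1 libraries far above both of KYSE30. Its l-lactate differences of 0.1 (-0.54 to 0.78) in KYSE30 and -0.07 (-0.33 to 0.19) in TE-1 were inside counting error.

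**Figure D3:**
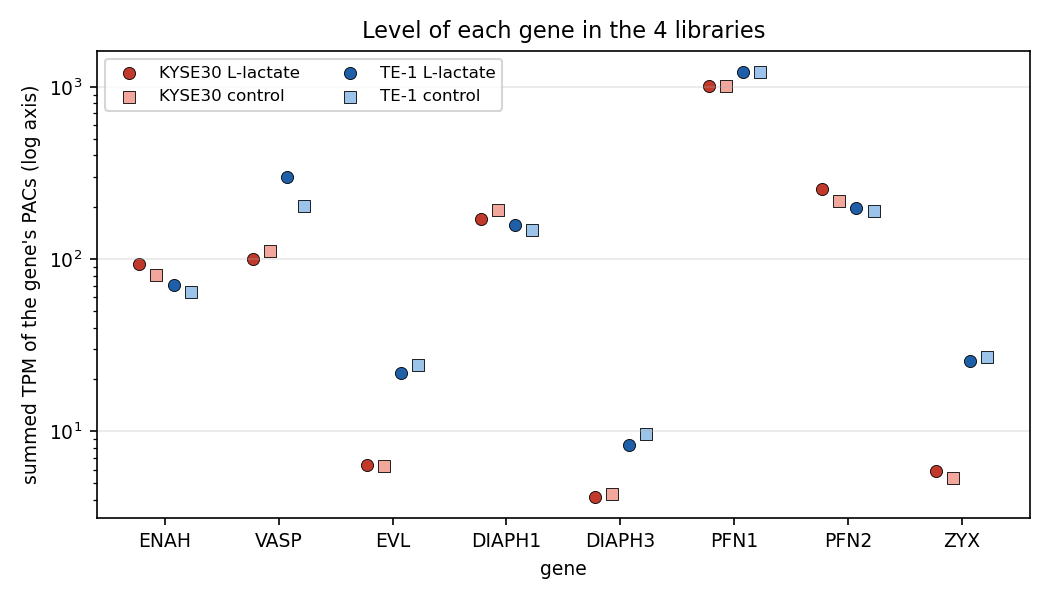
Summed TPM of the PACs of each gene on a log axis (y axis) for the 8 genes (x axis), with 1 point per library. The points run from 4.18 TPM (DIAPH3) to 1219 TPM (PFN1), and EVL, DIAPH3 and ZYX separate the TE-1 from the KYSE30 libraries most clearly beside VASP.

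In the order of levels, PFN1 was followed by PFN2, DIAPH1, VASP and ENAH in both KYSE30 libraries, then by EVL, ZYX and DIAPH3. In both TE-1 libraries it was followed by VASP, PFN2, DIAPH1 and ENAH, then by ZYX, EVL and DIAPH3. Counting intervals of neighbours overlapped for EVL and ZYX in every library and for ZYX and DIAPH3 in both of KYSE30. They also overlapped for VASP and ENAH in KYSE30 with l-lactate and for VASP and PFN2 in the TE-1 control.

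The question for levels was whether l-lactate changed the expression of these genes beside the site choice of ENAH. Of the 7 genes other than ENAH, VASP, DIAPH1 and PFN2 differed outside counting error in KYSE30 (3 of 7) and VASP in TE-1 (1 of 7). Over all genes tested, 23.8% did so in KYSE30 and 29.9% in TE-1. None of the 7 passed 1 on the log2 scale, against 1.19% of genes in KYSE30 and 1.24% in TE-1. Their median log2 difference was -0.0082 in KYSE30 and 0.007 in TE-1, beside 0 and 0.03 over all genes.

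An effect of l-lactate shared by the lines was tested with limma on log2(TPM + 1) over 9124 genes with a mean of at least 5 TPM, with the lines as the only repeats. It was called for 0 of the 7 genes. The adjusted p lay between 0.529 (PFN2) and 0.998 (PFN1), and 0 of the 7 had an unadjusted p under 0.05. Over all genes 1 was called, or 0.011%, and 955 had an unadjusted p under 0.05.

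**Figure D4:**
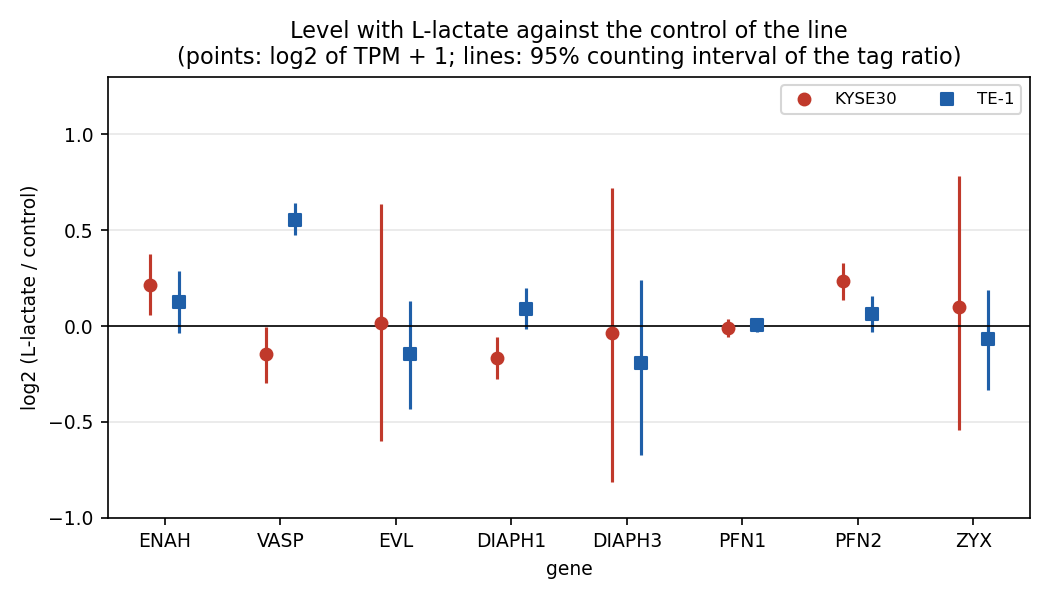
Log2 of TPM + 1 with l-lactate over the control (y axis) for each gene (x axis) in KYSE30 and TE-1, with lines for the 95% counting interval of the tag ratio. VASP lies on opposite sides of 0 in the lines, at -0.15 and 0.56, and the other points lie within 0.24 of 0.

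Between the lines, levels differed more than between conditions. By limma, in the same fit, all 8 genes were called, where 73.7% of all genes were, so the count by itself is near what most genes showed. Of the 8, 5 were higher in TE-1 and 3 in KYSE30. Over all genes 3359 were higher in TE-1 and 3361 in KYSE30. The difference in log2 was 2.04 for ZYX (SE 0.17, adjusted p = 1.36e-06, 4.12-fold), 1.7 for EVL (SE 0.17, adjusted p = 6.07e-06, 3.26-fold) and 1.21 for VASP (SE 0.13, adjusted p = 1.14e-05, 2.31-fold). DIAPH3 was higher in TE-1 by 0.94 (1.91-fold) and PFN1 by 0.26 (1.2-fold). In the other direction ENAH was at -0.37 (SE 0.09, adjusted p = 0.00328), PFN2 at -0.28 and DIAPH1 at -0.25 (adjusted p = 0.0189). The median of the 8 was 0.6, beside 0.0011 over all genes.

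The spread in this test joined 2 parts, and no culture was repeated. One was how far the lines disagreed in their response for the gene, on 1 residual degree of freedom. The other was estimated from all genes, with 9.165 prior degrees of freedom, and so weighed more. The SE of a gene can therefore be smaller than its own lines would give, as for VASP, whose l-lactate differences were -0.15 and 0.56. The call for DIAPH1 was lost without the filter on low genes (adjusted p = 0.0578, range over the alternatives 0.00353 to 0.0578).

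**Figure D5:**
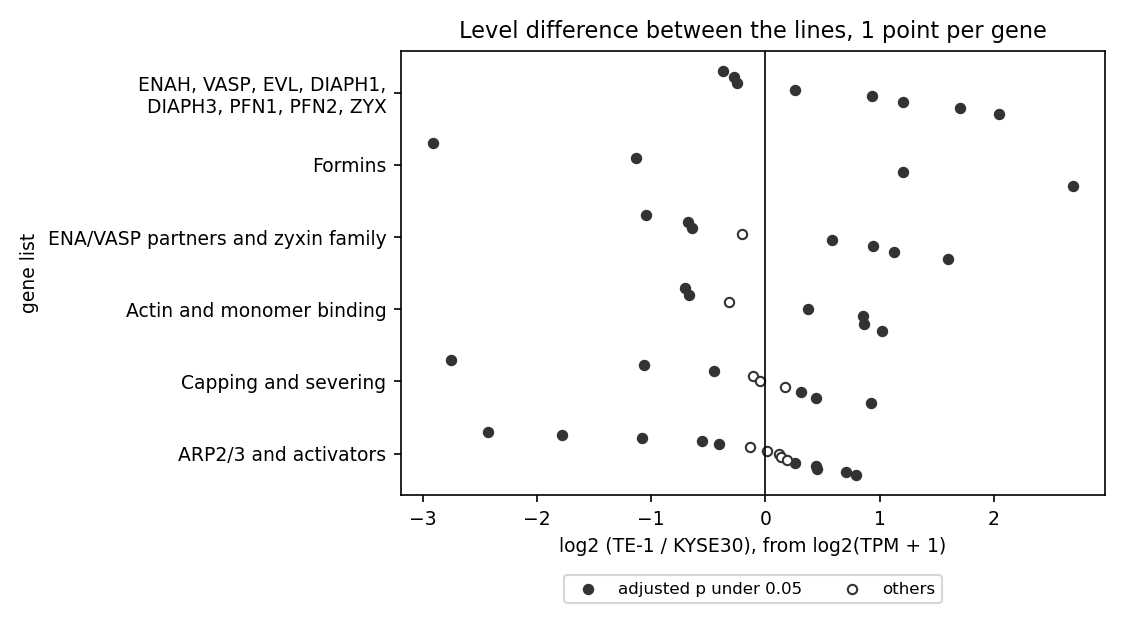
Log2 of TE-1 over KYSE30 (x axis), 1 point per gene, for the 8 genes and the tested genes of 5 lists of the actin pathway (rows), filled where the limma adjusted p was under 0.05. Of the 8 genes all are filled, from -0.37 (ENAH) to 2.04 (ZYX).

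The wider pathway was taken from 5 lists with 59 genes, of which 48 had a PAC and 43 were tested. Between the lines 18 were higher in TE-1 and 15 in KYSE30, a share close to the 73.7% over all genes, which also stands beside the counts of each list below. For l-lactate 0 of 43 were called, where 0.011% of all genes were, and 0 of 43 passed 1 on the log2 scale in either line, where 1.19% and 1.24% did. Among listed genes under the filter of 5 TPM, 2 are named after their values were seen. CAP2 was at 3.07 TPM in KYSE30 and 3.42 TPM in TE-1 with l-lactate and was not listed in either control. FHOD3 was at 3.21 TPM in KYSE30 with l-lactate and was not listed elsewhere. The authors removed PACs of a single site under 3 TPM, so genes this low can be unlisted without being absent. In distal usage, 0 of the 7 measured in KYSE30 and 0 of the 8 in TE-1 fell by 10 points or more, beside 5.86% and 5.17% of all genes, and so few genes cannot show a difference from those shares. AJUBA was at 28.8% with l-lactate and 37.5% without it in KYSE30, a change of -8.67 points, and at 32% in both TE-1 libraries. Of the formins, 2 of the 4 tested were higher in each line. INF2, a formin of the endoplasmic reticulum that also severs filaments, was at 4.46 and 4.31 TPM in KYSE30 and 30.1 and 37.9 TPM in TE-1, higher in TE-1 by 2.69 (adjusted p = 1.97e-07). DAAM1, a formin of Wnt signalling, was at 26.3 and 30.7 TPM in KYSE30 and 3.78 and 2.21 TPM in TE-1, at -2.91 (adjusted p = 5.7e-07). FHOD1 was higher in TE-1 by 1.21.

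Among partners of ENA/VASP proteins and relatives of zyxin, 4 of 8 tested genes were higher in TE-1 and 3 in KYSE30. AJUBA, a LIM protein of the zyxin family, led them in TE-1 with 1.6. Of 7 genes of actin and monomer binding, 4 were higher in TE-1, among them both cytoplasmic actins, and 2 in KYSE30. Of 9 genes of capping and severing, 3 were higher in each line. GSN, the severing protein gelsolin, was at 211 and 206 TPM in KYSE30 and 31.3 and 28.9 TPM in TE-1, at -2.75. Of 15 genes of the ARP2/3 complex and its activators, which build branched networks, 5 were higher in each line. CTTN, cortactin, which stabilizes those branches, was at 1423 and 1509 TPM in KYSE30 and 282 and 262 TPM in TE-1, at -2.43.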

How the data were processed

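The authors trimmed reads with FASTX-Toolkit 0.0.13, aligned them to GRCh38 with HISAT2, called PAS with CAGEr, dropped those under 1 TPM and joined those within 24 nt into PACs, then PACs within 500 nt. The deposited TPM are RPM values, tags of a PAC scaled to those of its library with no length correction. Total tags were recovered from the spacing of the listed values. PACs not listed in a library were taken as 0. PACs were placed on GENCODE 44 by dominant site, in the order 3′ UTR, exon, intron. Marker genes also took PACs up to 2000 nt past their end, because 1421 PACs lay in no gene and SFN and TP63 have theirs just past it.

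The genes and lists were chosen with earlier results of these data known. Named genes were the 8, the 5 nearest to ENAH by distal usage, and from the pathway lists up to 3 per direction with the largest line differences. Levels used log2(TPM + 1) and limma 3.58.1 (line + treatment, empirical Bayes, Benjamini-Hochberg, two-sided, mean TPM of at least 5). The limma tests set for distal usage give no p for ENAH, since their error rests on the falls it was selected on. Intervals at 95% were Wilson, Newcombe, exact Poisson and exact binomial. Pseudocounts, filters, scaling, minimum TPM, denominators and positions were varied. The limma step was tested on simulated data, with an outcome not given here. The simulation gave both lines the same l-lactate effect, so it cannot show how the step behaves where the lines disagree. Sequences came from the GRCh38 genome, with AAUAAA and its 18 single-base variants sought in 50 nt, and UGUA in 100 nt, on the transcribed strand. Python 3.11.15 and R 4.3.3 were used.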

Additional observations from a re-analysis of the deposited data

Results flagged for a closer look

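The level of VASP went opposite ways with l-lactate in the lines, at -0.147 on the log2 scale in KYSE30 and 0.556 in TE-1. Each counting interval excluded no change, though in KYSE30 only narrowly (upper end -0.0027). The difference between the lines has no test, since no condition was repeated. A PAC 4299 nt past the annotated end of VASP on the same strand, in no gene, was listed in TE-1 with l-lactate at 5.79 TPM (49 tags) and in no other library. In that library 267 PACs were listed that no other library listed, and this PAC entered no value of VASP.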

How the results depend on the processing

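Of 96 level changes of the 8 genes within a line under 6 other settings, 95 stayed within their counting interval. Only the pseudocounts and the median-of-ratios scaling could move these values. The settings by PAC set repeated the reported values exactly, so their agreement was fixed in advance. All 11 PACs were in a 3′ UTR and in all 4 libraries, and 0 of the 8 genes gained a PAC past its end. PFN1 in TE-1 went to -0.0372 with median-of-ratios scaling. The count of all genes called for l-lactate in both lines depended on the settings: 1 as reported, 0 with median-of-ratios scaling, without the filter or with a pseudocount of 0.5, 2 with PACs past gene ends (added after seeing the data) and 173 with a pseudocount of 5. None of the 7 genes other than ENAH was called under any of these settings. The effect for ZYX reversed with median-of-ratios scaling, from 0.0161 to -0.00684. All 8 line differences kept their direction, and only that of DIAPH1 lost its call, without the filter. The fall of ENAH in distal usage kept its direction and stayed within its interval with every minimum TPM, denominator and PAC set tried. Of the sets, 2 (distal with middle, and the last exon of the long transcripts) were added after seeing the data. All these settings recount the tags on which ENAH was selected, so they describe the fall and add no evidence for it. The 1 moved site in KYSE30 went to 0 with the lower and 0 with the upper quantile position. Count-model tests on whole tags, planned as alternatives, were not run because low PACs are not listed and whole reads could not be recovered for them. The limma fit pairs the libraries of a line through its line term, the labels carry no replicate numbers for another pairing, and leaving out a library would leave no residual degree of freedom. DIAPH3, EVL and ZYX in KYSE30 rest on 30 to 47 tags, and the interval of DIAPH3 there ran from -0.81 to 0.72 on the log2 scale, so changes inside it were not detectable at this depth.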
